A study of Mus musculus with 12 samples.

Results

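The RNA held by YTHDF2 in tumor myeloid cells was compared between irradiated and unirradiated tumors by setting the 3 YTHDF2 immunoprecipitation (IP) libraries labelled IR against the 3 IP libraries labelled Control (Ctrl), which are 6 of the 12 RIP-seq libraries of the series. The libraries were chosen by their labels alone, and the other 6, the Inputs, were kept out of the fit. Of 54446 annotated genes, 19255 reached at least 10 counts in at least 3 of the 6 IP libraries and were tested. All samples were CD11b+ myeloid cells sorted from subcutaneous tumors of MC38, a mouse colon carcinoma line, grown in WT mice, which here carried the floxed and intact Ythdf2 gene without Cre and were young adults of both sexes. Ctrl tumors received sham treatment, and IR tumors received a single local dose of 20 Gy 3 days before the cells were collected. Each library came from cells pooled over several mice, and the study calls its replicates technical, so the p-values measure the spread between these libraries, which may be technical.

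YTHDF2 is a cytoplasmic reader of N6-methyladenosine (m6A), the most abundant internal modification of mRNA, and it brings the RNAs it holds to the deadenylation and decay machinery. In RIP-seq the protein is pulled down with its RNA, and the reads of a gene are its share of the recovered pool. That share follows both the abundance of the transcript in the cells and the fraction of it that is held, so the change of the same gene in the Input (RNA from the same lysates before the pull-down) is given beside it. In bulk samples of this kind, fewer cells of a type and less RNA per cell cannot be told apart.

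The IP libraries held 28919897 to 33882664 reads on genes in Ctrl and 27852948 to 30244160 in IR. Reads on no gene made up 42.3% ± 0.462 (SD, n = 3) of uniquely aligned reads in the Ctrl IP and 51.4% ± 2.43 (SD, n = 3) in the IR IP, with all 3 IR libraries above all Ctrl libraries and replicate 1 of the IR IP highest at 54.1%. Genes of at least 1 CPM (counts scaled to the total of a library) numbered 13975, 13873 and 13804 in the Ctrl IP and 16906, 15928 and 15764 in the IR IP, while the Inputs held 13412 to 13494. The part that these differences between the pools play in the gene-level results was not tested. Markers of the sorted cells were present in every IP library, with Itgam (CD11b) at 701 to 937 CPM and Csf1r, the receptor for macrophage colony-stimulating factor, at 114 to 131 CPM on the TMM scale. Of the markers of other cell types, Cd3e of T cells reached at most 0.39 CPM and Epcam of epithelium at most 1.6 CPM, but others were present. Il7r, an interleukin receptor of lymphocytes, stood at 212 to 318 CPM and Cd79b, of the B cell receptor, at 19.1 to 40.2 CPM. Cdh1, E-cadherin, stood at 43.7 to 78.3 CPM and Vwf, von Willebrand factor of endothelium, at 57 to 85.8 CPM. A level in the IP follows binding as well as abundance. The Input means in Ctrl and IR were 53.2 and 60.7 CPM for Il7r and 6.75 and 4.54 CPM for Cd79b. They were 121 and 84.7 CPM for Cdh1 and 51.8 and 70.9 CPM for Vwf. The part of other cell types in the results was not tested.

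With trimmed-mean (TMM) scaling, which assumes that most genes keep their level, 1179 genes (6.12%) were higher and 1896 genes (9.85%) were lower in the IR IP at an adjusted p-value under 0.05 (edgeR, quasi-likelihood F-test, p-values adjusted by Benjamini and Hochberg over all genes). Scaling by library size alone, which keeps every gene as a share of all gene counts, gave 2665 genes higher (13.8%) and 828 lower (4.3%). The share of higher genes among the calls thus moved from 38.3% to 76.3%. The median log2 fold change of all genes was 0.062 under TMM and 0.27 under library size, a shift of 0.21 that every gene carries, and no gene called lower under TMM was called higher under library size. All 1179 genes higher under TMM were also higher under library size, and 828 of the 1896 lower genes kept their call. Of the called genes, 571 rose and 135 fell by at least 2-fold. The Input mean was under 1 CPM for 394 of the 1179 higher genes and 9 of the 1896 lower genes. Of the higher genes, 171 passed the filter only through IR. Leaving out replicate 1, 2 or 3 of the Ctrl IP lowered the number of higher genes to 769, 769 and 715. For reference, 3557 genes (21%) were higher and 4047 (23.9%) lower among the 16914 genes tested in the Input. The IP change exceeded the Input change at 1301 genes (6.28%) and fell short of it at 2881 (13.9%) of the 20720 genes in the interaction test over all 12 libraries under TMM. Under library size the balance turned, to 2862 genes above and 877 below. The differences between IP and Input changes given for genes and lists are under TMM, with all 12 libraries scaled together. They therefore need not equal the printed IP change minus the printed Input change. Over all genes in that test the median difference was -0.083.

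Genes of cell growth and division were among those that lost share. Mki67, which encodes the proliferation antigen that coats mitotic chromosomes (chr7:135689784-135716361, minus strand, mm10), stood at 1555, 1494 and 1497 CPM in the Ctrl IP and at 550, 532 and 543 CPM in the IR IP. The groups lay far apart, and the log2 fold change was -1.48 (SE 0.04, adjusted p = 7.22e-13), or -1.28 under library size. In the Input the same gene fell by 1.01 on the log2 scale, and the IP change was lower than the Input change by -0.56 (adjusted p = 2.95e-08).

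Of the 81 mitosis and cell division genes, all tested, 29 fell and 1 rose in the IP, with a median log2 fold change of -0.36. Cenpf, a kinetochore protein, fell from 337, 347 and 332 CPM to 146, 150 and 139 CPM (log2 -1.22, SE 0.058, adjusted p = 5.30e-10). Smc4, a condensin subunit, fell from 1261, 1274 and 1212 CPM to 697, 741 and 712 CPM in the IP (log2 -0.80, adjusted p = 1.13e-09), whereas its Input change was 0.078. Gtse1, a G2 and S phase protein that is also in the p53 target list, was the member that rose (log2 1.15, adjusted p = 0.0015). Under library size 20 members fell and 2 rose, with a median of -0.16. In the Input 61 of the 81 fell, with a median of -0.35. Over the list the IP change was below the Input change at 22 members and above it at 11, against 13.9% and 6.28% of all genes. The median difference was -0.073, near the -0.083 of all genes.

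DNA replication genes followed the same course, with 26 of 60 lower, none higher and a median of -0.43. Chaf1a, the large subunit of the chromatin assembly factor that deposits histones behind the fork, fell from 392, 425 and 458 CPM to 218, 194 and 230 CPM (log2 -0.99, SE 0.07, adjusted p = 5.02e-08). Dbf4, the activator of the Cdc7 kinase, changed by -0.80 (adjusted p = 3.96e-07), and Lig1, the ligase that joins Okazaki fragments, by -0.70 (adjusted p = 4.40e-07). Lig1 moved by 0.032 in the Input and missed the threshold there (adjusted p = 0.559), while 45 of the 60 members fell in the Input. The IP change was below the Input change at 14 members and above it at 2, with a median difference of -0.13 (-0.083 over all genes). Library-size scaling left 14 members lower and 1 higher, with a median of -0.22. Without replicate number 2 or 3 the lower members numbered 15 and 17.

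Ribosome biogenesis was the list with the most members lower. Of 79 genes, all tested, 48 fell and 1 rose, against 9.85% lower among all genes, and the median was -0.66 (-0.46 under library size, with 41 lower and 1 higher). Nop56, a core protein of box C/D small nucleolar ribonucleoproteins (chr2:130274430-130279313, plus strand), stood at 558, 571 and 559 CPM in the Ctrl IP and at 213, 196 and 211 CPM in the IR IP. The log2 fold change was -1.45 (SE 0.053, adjusted p = 3.13e-11). Its introns host small nucleolar RNA genes on the same strand, and reads on both may have been set aside as ambiguous or counted with it.

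Nop58, its partner in the same particles, changed by -1.51 (SE 0.061, adjusted p = 9.10e-11) and Nolc1, a nucleolar chaperone of these particles, by -1.53 (adjusted p = 5.65e-10). Dkc1, the pseudouridine synthase of box H/ACA particles, changed by -1.53 as well (adjusted p = 1.13e-09). All 3 libraries of IR lay below all Ctrl libraries for each of these genes. The same was so at 58 of the 79 members and at 3355 of all 19255 genes tested. At 3188 of all genes tested every IR library lay above. Npm1, a nucleolar histone chaperone, was the member called higher and rose from 143, 135 and 145 CPM to 179, 176 and 173 CPM (log2 0.32, adjusted p = 0.00254). In the Input 65 of the 79 members fell, with a median of -0.41, and the IP change was below the Input change at 34 members and above it at 1. The list as a whole held 0.729% to 0.742% of gene counts in the Ctrl IP and 0.492% to 0.503% in the IR IP. The groups did not overlap in this share, as in most of the 30 lists.

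**Figure D1:**
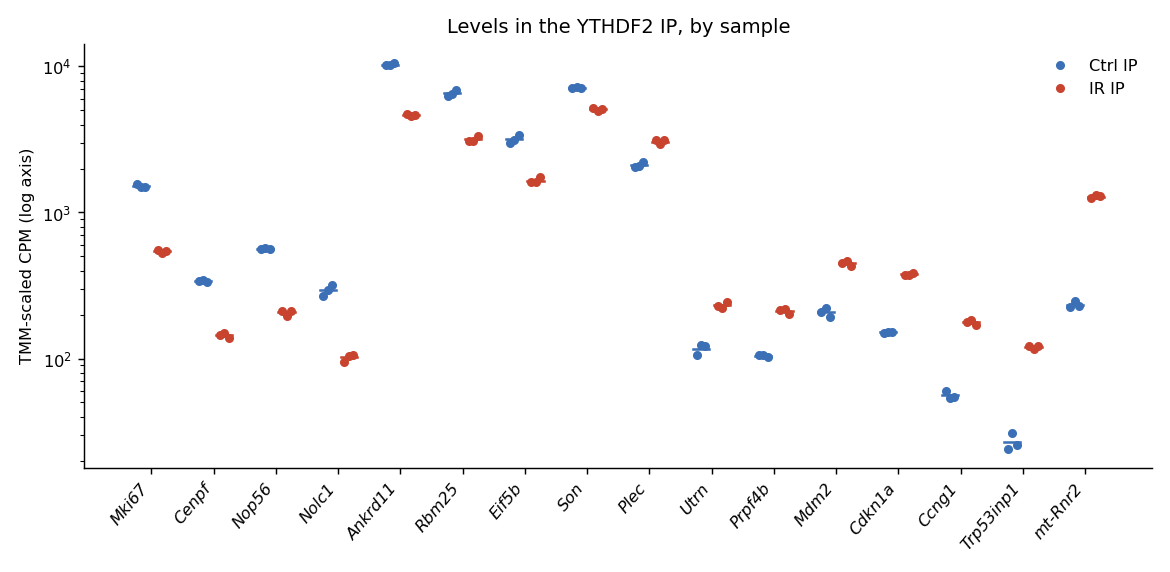
Level of 16 genes in each YTHDF2 IP library, in TMM-scaled CPM on a log axis, with Ctrl in blue, IR in red, a point per library and a bar at the mean of the 3 libraries. For every gene shown the groups do not overlap. Of all 19255 genes tested, 3188 had every IR library above every Ctrl library and 3355 had every IR library below. Mki67 falls from 1494 to 1555 CPM in Ctrl to 532 to 550 CPM in IR. Trp53inp1 rises from 24 to 31 CPM to 116 to 122 CPM.

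Among the genes of chromatin and splicing that fell in the IP were several whose Input rose. Ankrd11, a large nuclear regulator that recruits histone deacetylases (chr8:122883822-123042277, minus strand), took 0.958% of the gene counts of the Ctrl IP and 0.497% of those of the IR IP. Its level was 10212, 10175 and 10512 CPM in Ctrl and 4693, 4581 and 4649 CPM in IR. The log2 fold change was -1.15 (SE 0.024, adjusted p = 2.22e-14), or -0.94 under library size, whereas in the Input it rose by 0.16 (adjusted p = 6.57e-05). The difference between the changes was -1.40 (adjusted p = 4.10e-15).

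Among the 99 chromatin modifiers and remodelers, 42 fell and 11 rose, with a median of -0.14. The balance depended on scaling, since under library size 29 fell, 29 rose and the median was 0.069. In the Input 47 of the 99 fell and 26 rose, with a median of -0.10. Ankrd12, a paralog of Ankrd11, went from 2701, 2855 and 2867 CPM to 1430, 1464 and 1453 CPM in the IP (log2 -0.95, SE 0.034, adjusted p = 2.79e-11), while its Input rose by 0.37. Chd7, a chromodomain helicase, changed by -0.77 (adjusted p = 3.13e-11) and Atrx, a helicase that deposits histone H3.3 with its partner Daxx, by -0.82 (adjusted p = 2.32e-10).

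Members of the same list also rose against a falling Input. Kmt2d, a histone H3 lysine 4 methyltransferase, stood at 572, 589 and 603 CPM in Ctrl and at 810, 814 and 867 CPM in IR (log2 0.50, SE 0.045, adjusted p = 9.38e-07). In the Input it fell by 1.05 on the log2 scale, and the difference was 1.46 (adjusted p = 8.93e-13). Chd9 rose by 0.47 (adjusted p = 4.72e-04). Without replicate number 2 or 3 the higher members numbered 7 and 5 in place of 11. The summed share of the list was 5.84% to 5.9% of gene counts in the Ctrl IP and 4.57% to 4.63% in the IR IP, against 1.88% to 1.96% in the Inputs of both conditions.

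SR proteins and other nuclear speckle factors, which select splice sites and feed spliceosomes, showed 29 of 53 members lower and 1 higher, with a median of -0.27 (-0.067 under library size, with 23 lower and 10 higher). Rbm25, a splicing regulator with an arginine and glutamate repeat, went from 6242, 6499 and 6900 CPM to 3095, 3101 and 3320 CPM (log2 -1.05, SE 0.037, adjusted p = 2.79e-11). Luc7l3, a U1-associated factor, fell from 3749, 3782 and 3987 CPM to 1839, 1829 and 1929 CPM (log2 -1.04, adjusted p = 1.27e-11). Ppig, a cyclophilin of the speckles, changed by -1.09 (adjusted p = 2.79e-11). In the Input these 3 genes rose by 0.27, 0.21 and 0.17.

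Prpf4b, a kinase of the spliceosome, was the member that rose, from 105, 105 and 103 CPM to 216, 218 and 203 CPM (log2 1.02, SE 0.065, adjusted p = 1.20e-08), while its Input fell by 0.28. Son, the scaffold of the speckle and with Malat1 and Ankrd11 among the 3 genes with most counts in the Ctrl IP, changed by -0.49 (adjusted p = 6.56e-10) from 7131 to 7197 CPM in Ctrl. The interaction test placed 37 of the 53 members lower in the IP change than in the Input change and 4 higher.

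**Figure D2:**
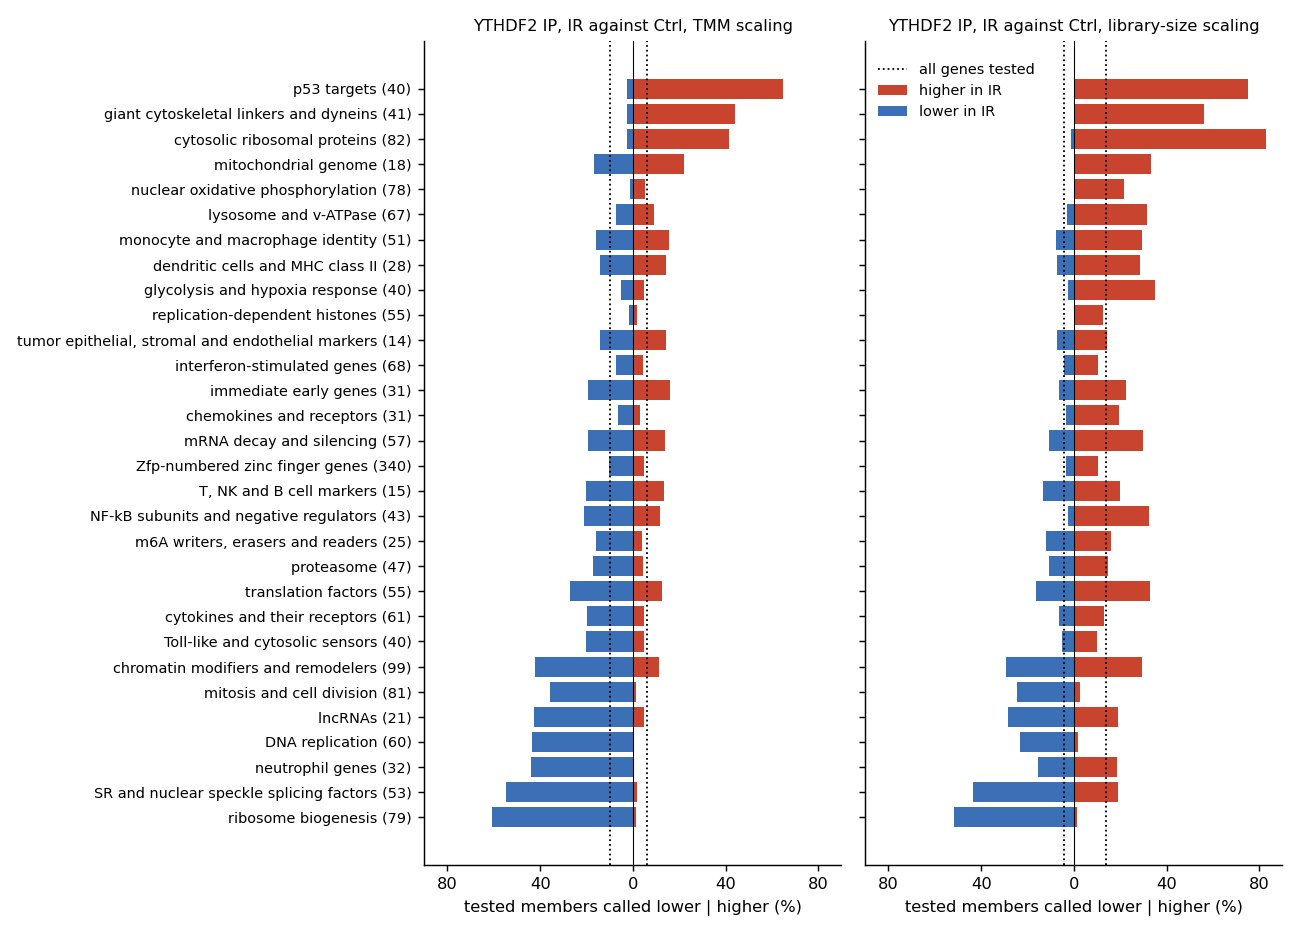
Percentage of the tested members of each of 30 gene lists that were called higher (red, right) or lower (blue, left) in the IR IP, with the number tested in parentheses and dotted lines at the percentages of all genes tested, under TMM on the left and library-size scaling on the right. Ribosome biogenesis (48 of 79 lower under TMM, 41 under library size) and p53 targets (26 of 40 higher under TMM, 30 under library size) stand at the ends under TMM, while chromatin modifiers go from 42 lower and 11 higher to 29 and 29.

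Of 55 translation factors 15 were lower and 7 higher under TMM, with a median of -0.11, and 9 lower and 18 higher under library size, with a median of 0.094. Eif5b, the GTPase that joins the ribosomal subunits, fell from 2981, 3116 and 3410 CPM to 1606, 1615 and 1741 CPM (log2 -0.94, SE 0.046, adjusted p = 6.56e-10), and Eif3a, the largest subunit of the eIF3 complex, changed by -0.89 (adjusted p = 3.33e-10). Eef1a1, the elongation factor that delivers aminoacyl-tRNA, rose from 893, 894 and 851 CPM to 1331, 1315 and 1169 CPM (log2 0.53, SE 0.049, adjusted p = 1.06e-06), and Eef2, the translocase, rose by 0.39 (adjusted p = 5.92e-06). Eef1a1 and many ribosomal protein genes have processed copies in the genome, so their counts are uncertain where reads could be split.

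Of the 82 cytosolic ribosomal protein genes, 34 were higher and 2 lower in the IP, with a median of 0.15 (0.36 under library size, with 68 higher and 1 lower). Their summed share was 3.97% to 4.01% of gene counts in the Ctrl IP and 5.01% to 5.03% in the IR IP. Rps19 rose by 0.34 (adjusted p = 6.94e-05), Rps4x by 0.42 (adjusted p = 3.83e-05) and Rps3a1 by 0.29 (adjusted p = 1.64e-04). In the Input 78 of the 82 rose, with a median of 0.44, and at 64 members the IP change was below the Input change. The 2 lower members were Rps10, which changed by -1.39 (adjusted p = 0.02), and Rpl12, which changed by -0.19 (adjusted p = 0.00983) but stood at 0.015 under library size. Neither call remained with any replicate number left out, and without replicate number 2 the higher members numbered 21.

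The largest gains in functional terms were in p53 targets, the genes that the tumor suppressor p53 switches on after DNA damage. Of 40 genes, all tested, 26 rose and 1 fell, against 6.12% higher among all genes, and the median was 0.99 (1.19 under library size, with 30 higher and none lower). Cdkn1a, which encodes the cyclin-dependent kinase inhibitor p21 (chr17:29090976-29100727, plus strand), stood at 150, 153 and 152 CPM in the Ctrl IP and at 372, 375 and 386 CPM in the IR IP. The log2 fold change was 1.32 (SE 0.054, adjusted p = 9.53e-11). It rose more in the Input, by 1.56, and the difference of -0.33 passed the threshold (adjusted p = 5.75e-05).

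Ccng1, cyclin G1, rose from 60.3, 53.7 and 54.3 CPM to 178, 183 and 171 CPM (log2 1.66, SE 0.076, adjusted p = 3.92e-10). Trp53inp1, a stress protein that promotes cell death, rose from 24, 31 and 25.4 CPM to 122, 116 and 121 CPM (log2 2.15, SE 0.10, adjusted p = 6.39e-10). For both the IP change was above the Input change, by 0.31 and 0.32 (adjusted p = 0.00634 and 0.0386). Mdm2, the ubiquitin ligase that limits p53, rose by 1.12 (adjusted p = 2.32e-09) and Bbc3, the death protein Puma, by 1.47 (adjusted p = 4.02e-08).

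Over the whole list the Input median was 0.90 with 33 of 40 higher, and the IP change was below the Input change at 10 members and above it at 4. Ckap2, a spindle protein, was the member that fell, by 0.38 on the log2 scale (adjusted p = 0.0467), a call lost under library size (adjusted p = 0.363), with the replicate block (adjusted p = 0.057) and with each replicate number left out. Summed over the list, the share of gene counts was 0.139% to 0.147% in Ctrl and 0.303% to 0.317% in IR.

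Among the 8 protein-coding genes of at least 10 CPM with the largest rises, Trp53inp1, Zmat3 and Perp belonged to this list. Zmat3, a p53-induced RNA-binding protein, rose by 1.75 (adjusted p = 1.55e-07) and Perp, a p53 effector of cell death and adhesion, by 1.78 (adjusted p = 6.18e-07). Epha2, a receptor tyrosine kinase outside the list, rose by 1.72 (adjusted p = 2.01e-05). Cep170b, a microtubule-associated protein, rose from 15.4, 14.1 and 16.3 CPM to 60.6, 69.2 and 76.8 CPM (log2 2.18, SE 0.12, adjusted p = 3.56e-09), and Inka2, an inhibitor of the kinase Pak4, by 1.91 (adjusted p = 4.01e-07).

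Genes near the detection limit in Ctrl gave the largest fold changes. Zfp365, a zinc finger protein of DNA damage tolerance, went from 0.487, 0.476 and 0.376 CPM to 15.2, 12.6 and 12.8 CPM (log2 4.90, SE 0.31, adjusted p = 1.09e-08). Sec14l5 rose by 4.45 (adjusted p = 2.15e-06), Celf5, an RNA-binding protein, by 3.84 (adjusted p = 3.77e-07) and Matn1, a cartilage matrix protein, by 3.07 (adjusted p = 1.97e-06). The same 4 genes rose in the Input, by 3.66, 4.36, 4.45 and 4.24. At Matn1 the IP change was below the Input change by -1.26 (adjusted p = 0.0258), and at Zfp365 it was above by 1.16 (adjusted p = 0.0172).

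**Figure D3:**
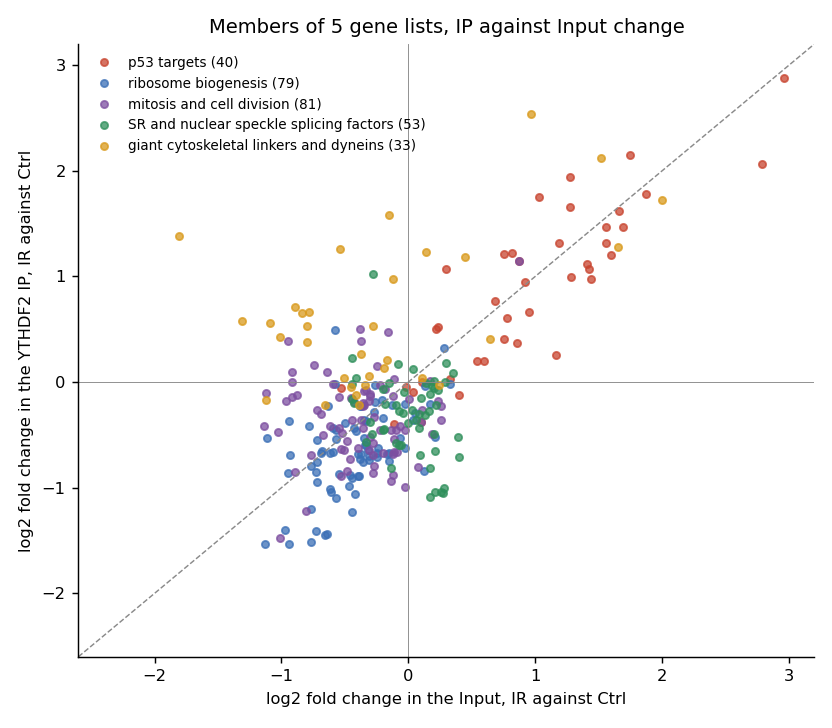
Log2 fold change of each list member in the YTHDF2 IP (vertical) against that in the Input (horizontal), IR against Ctrl under TMM, with the number of members in parentheses, a color per list and a dashed line where both changes are equal. The p53 targets lie along the line (medians 0.99 and 0.90), speckle factors lie below 0 in the IP around 0 in the Input (medians -0.27 and 0.058), and giant linkers lie largely above the line (medians 0.58 over 41 members in the IP and -0.37 over 33 in the Input).

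Genes of giant cytoskeletal proteins gained share in the IP while losing it in the Input. Of 41 tested members, 18 rose and 1 fell, with a median of 0.58 (0.79 under library size, with 23 higher and none lower), and in the Input 20 of 33 fell and 6 rose. Plec, the linker plectin (chr15:76170974-76232574, minus strand), stood at 2050, 2094 and 2219 CPM in Ctrl and at 3118, 2927 and 3122 CPM in IR (log2 0.53, SE 0.037, adjusted p = 4.78e-08). In the Input it fell by 0.80, and the difference was 1.24 (adjusted p = 1.23e-12). Parp10 overlaps it on the same strand, and reads on both genes may have been set aside as ambiguous or counted with it.

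Syne1, which ties the nucleus to actin, rose from 414, 410 and 432 CPM to 696, 633 and 641 CPM (log2 0.65, SE 0.05, adjusted p = 1.40e-07). Utrn, the dystrophin relative utrophin, rose from 106, 123 and 122 CPM to 229, 223 and 242 CPM (log2 0.98, SE 0.072, adjusted p = 7.37e-08), and Macf1, a linker of actin and microtubules, rose by 0.66 (adjusted p = 1.30e-06). Sptbn1, a spectrin, was the member called lower, at -0.22 (adjusted p = 0.0345), a call lost under library size and with each replicate number left out. Flna and Ahnak, at -0.025 and -0.024, did not pass the test. Of the 41 tested members, 15 had an Input mean under 1 CPM, and with these set aside 13 of 26 rose and 1 fell, with a median of 0.33. Without replicate number 2, 11 members rose, and without number 3, 12.

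Coding length and level were read across all genes beside these lists. Among protein-coding genes with an Input of at least 1 CPM, those with a coding sequence over 4000 bases rose at 155 of 787 (19.7%) and fell at 130 (16.5%) under TMM, against 324 and 75 under library size. In the Input 448 of these 787 genes fell and 123 rose, with a median of -0.22. A fall in the Input was thus not particular to the giant linkers. Genes of 500 to 1000 coding bases rose at 130 of 2681 (4.85%) and fell at 378 (14.1%) under TMM, whereas under library size the balance turned to 334 higher and 160 lower. In the Input 824 of them rose and 506 fell. The level in the IP, which is in CPM and not per length, moved with the direction of the calls under TMM. Of 573 genes with a mean over 300 CPM across the 6 libraries, 369 (64.4%) fell and 59 (10.3%) rose, and of 3489 genes between 10 and 30 CPM 293 (8.4%) fell and 180 (5.16%) rose. The median log2 fold changes of these 2 classes were -0.27 and -0.043. The share called also depends on the counts of a gene, which set its precision, and that part was not tested. Under library size 240 fell and 146 rose in the upper class, and in the lower the balance turned to 108 lower and 502 higher. Of 4485 genes under 1 CPM, 152 rose and 4 fell. Over all levels, 506 of the tested genes had no Ctrl library with 10 counts and could pass the filter only through IR, 171 of them called higher.

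**Figure D4:**
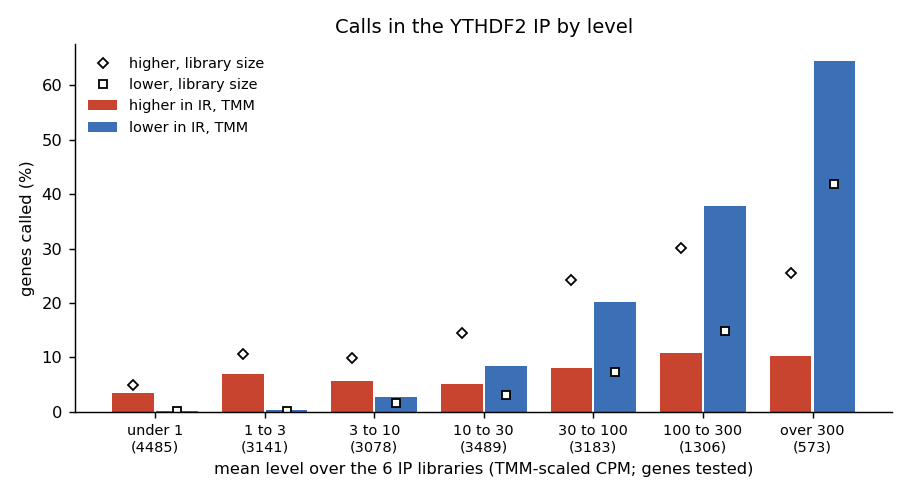
Percentage of tested genes called higher (red bars) and lower (blue bars) in the IR IP under TMM, by mean level over the 6 IP libraries in TMM-scaled CPM, with the number tested in parentheses and open symbols for library-size scaling. The lower calls go from 0.0892% of genes under 1 CPM to 64.4% of genes over 300 CPM. Genes with few counts are harder to call, and the median log2 fold change was -0.043 from 10 to 30 CPM and -0.27 over 300 CPM.

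Many genes of chromatin, splicing, nucleolus and translation that fell shared a feature of sequence that the choice of libraries did not use and that was noticed after their values were seen, so it is given as a description with no test. Their coding sequences hold stretches made almost wholly of purines, whose purine-only codons encode lysine, glutamate, arginine and glycine. A window of at least 50 purines in 60 bases was present in 36 of the 42 chromatin genes, 18 of the 29 splicing factors, 24 of the 48 ribosome biogenesis genes and 7 of the 15 translation factors that fell. Over all tested members of these lists it was present in 58 of 99, 24 of 53, 29 of 79 and 8 of 55. It also occurred in genes that rose, namely 4 of 11 chromatin genes, 5 of 18 giant linkers and Prpf4b, but in none of the 40 p53 targets. The richest 60-base window of the longest coding transcript was found for each gene on the transcript strand of the GENCODE M21 annotation (GRCm38, the same build as mm10). The windows below are from the 6 genes with the highest Ctrl IP level among those that fell and had a window of at least 50 purines within a single exon, then from Mki67 and Nop56, then from 3 p53 targets that rose, for contrast. The longest run of uninterrupted purines is in capitals.

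Ankrd11 (chr8:122892628-122892687, minus strand, 56 purines): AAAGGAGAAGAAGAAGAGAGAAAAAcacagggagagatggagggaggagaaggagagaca
Son (chr16:91654690-91654749, plus strand, 55 purines): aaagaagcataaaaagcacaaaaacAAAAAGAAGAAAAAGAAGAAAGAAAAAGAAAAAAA
Rbm25 (chr12:83663984-83664043, plus strand, 55 purines): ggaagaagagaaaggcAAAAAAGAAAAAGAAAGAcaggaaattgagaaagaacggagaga
Hsp90ab1 (chr17:45570474-45570533, minus strand, 55 purines): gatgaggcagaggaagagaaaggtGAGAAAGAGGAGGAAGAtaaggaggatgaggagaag
Baz1a (chr12:54934805-54934864, minus strand, 55 purines): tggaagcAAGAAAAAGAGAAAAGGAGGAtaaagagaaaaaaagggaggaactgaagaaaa
Chd7 (chr4:8785589-8785648, plus strand, 51 purines): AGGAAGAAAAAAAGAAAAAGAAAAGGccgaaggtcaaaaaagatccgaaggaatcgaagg
Mki67 (chr7:135698813-135698872, minus strand, 46 purines): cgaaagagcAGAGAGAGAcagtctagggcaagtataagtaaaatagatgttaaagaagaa
Nop56 (chr2:130278174-130278233, plus strand, 48 purines): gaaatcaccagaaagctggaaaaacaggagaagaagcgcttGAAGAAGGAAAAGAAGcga
Cdkn1a (chr17:29098765-29098824, plus strand, 37 purines): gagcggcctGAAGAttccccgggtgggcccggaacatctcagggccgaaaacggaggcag
Ccng1 (chr11:40752168-40752227, minus strand, 41 purines): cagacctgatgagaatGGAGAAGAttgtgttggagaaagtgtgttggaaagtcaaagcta
Trp53inp1 (chr4:11165101-11165160, plus strand, 42 purines): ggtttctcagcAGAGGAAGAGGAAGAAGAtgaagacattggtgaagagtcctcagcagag

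Across 11491 protein-coding genes with an Input of at least 1 CPM and such a window, 981 had at least 50 purines, and 418 of them (42.6%) fell in the IR IP while 57 rose, with a median log2 fold change of -0.25. Of the 10510 genes below that number, 1333 (12.7%) fell and 671 rose, with a median of -0.04. The share that fell was 11.6% below 40 purines, 15% from 45 to 49, 39.5% from 50 to 54 and 54.8% from 55 upward. Under library size 271 of the 981 fell and 160 rose, against 485 and 1803 of the others. In the Input the 981 genes had a median of -0.0024, with 297 higher and 335 lower. Windows rich in pyrimidines showed no such pattern, since 13 of 125 genes with at least 50 pyrimidines fell and 16 rose.

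The genes with purine-rich windows also stood higher in the pool, with a median of 77 CPM over the 6 IP libraries against 20.6 CPM for the others, and longer in coding sequence, with a median of 2346 against 1322 bases. Against the Input they were also more enriched in the Ctrl IP, with a median log2 ratio of IP over Input of 0.48 against -0.33. In the IR IP the medians were 0.39 and -0.28. Over 300 CPM the purine-rich genes had medians of 1.62 in Ctrl and 0.93 in IR, and the others 0.57 and 0.30. Classes of level therefore did not match the genes on this ratio, and its part was not tested. Within classes of level the gap persisted. From 30 to 100 CPM 33.9% of the purine-rich genes fell and 18.2% of the others, from 100 to 300 CPM 54.2% and 34%, and over 300 CPM 89.3% and 50%. Within coding lengths of 1000 to 2000 bases, 44.8% of the purine-rich genes fell and 13.4% of the others. With the 5 lists of mitosis, DNA replication, ribosome biogenesis, chromatin and splicing set aside, 329 of 852 purine-rich genes (38.6%) fell, against 1248 of 10267 others (12.2%). In all, the 981 genes held 28.3%, 28.7% and 29.1% of gene counts in the Ctrl IP and 22.8%, 22.9% and 23.4% in the IR IP. The 6 Inputs held 12.8% to 13.5%. The IP groups did not overlap, as was also so for the shares of most of the 30 gene lists.

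**Figure D5:**
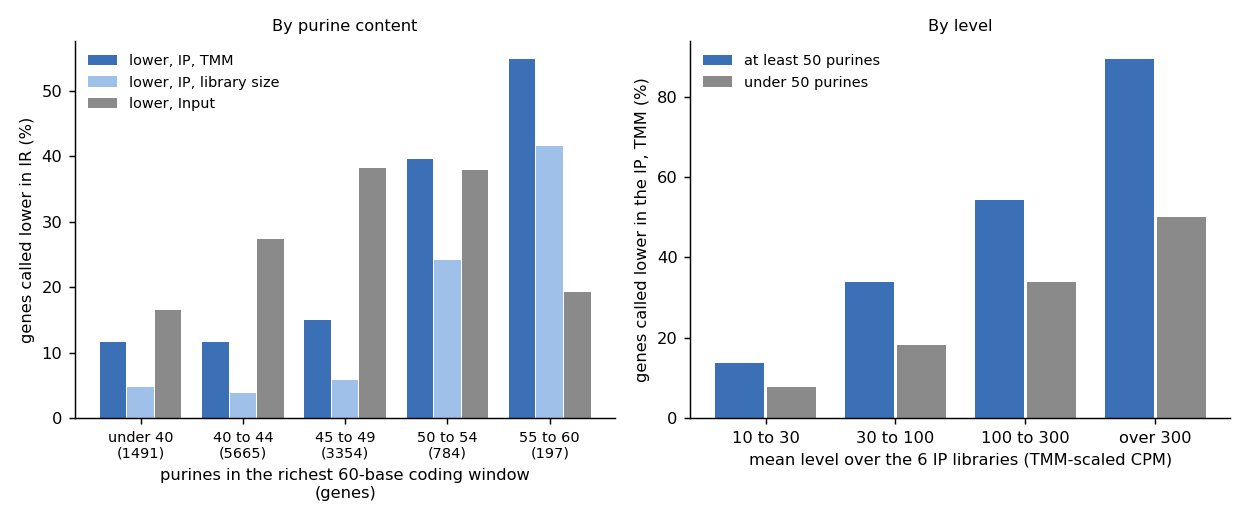
Left, percentage of protein-coding genes called lower in IR by the number of purines in the richest 60-base coding window, in the IP under TMM (dark blue), in the IP under library size (light blue) and in the Input (grey), with the number of genes in parentheses. Right, percentage called lower in the IP under TMM by mean IP level for genes with at least 50 purines (blue) and fewer (grey), where over 300 CPM the values are 89.3% and 50%.

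Genes of the myeloid lineages moved in part with lineage and in part against their Input. Mpo, myeloperoxidase of the primary granules that early neutrophil precursors make, fell from 102, 99.4 and 115 CPM to 24.9, 23.6 and 22.8 CPM (log2 -2.15, SE 0.10, adjusted p = 3.69e-10), with an Input change of -1.99. Elane and Prtn3, neutrophil serine proteases of the same granules, changed by -1.30 (adjusted p = 4.23e-06) and -1.22 (adjusted p = 1.58e-06), and both also fell in the Input, by 0.99 and 0.94. Of 32 neutrophil genes 14 fell and none rose under TMM, with a median of -0.17, but under library size 5 fell and 6 rose, with a median of 0.038. With each replicate number left out in turn, 8 to 9 members fell under TMM, and in the Input 15 of the 32 rose and 5 fell.

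Siglech, a receptor of plasmacytoid dendritic cells, gave the largest fall of its class, from 28, 35.4 and 37.5 CPM to 3.09, 4.93 and 6.2 CPM (log2 -2.83, SE 0.23, adjusted p = 2.10e-07), against -1.85 in the Input. Epx, eosinophil peroxidase, went from 10.3, 11.5 and 14.4 CPM to 2.33, 1.11 and 3.51 CPM (log2 -2.38, adjusted p = 1.56e-04) and Prg2, the eosinophil major basic protein, from 6.1, 5.11 and 6.89 CPM to 0.945, 1.23 and 3.2 CPM (log2 -1.75, adjusted p = 0.0117). The call of Prg2 was lost without replicate number 1 or 2. Cyp11a1, the first enzyme of steroid synthesis, changed by -1.50 (adjusted p = 4.88e-06) against an Input change of -0.30. Cdca7, a cell division gene that MYC induces, changed by -1.53 (adjusted p = 9.50e-05).

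Of 51 monocyte and macrophage genes 8 were higher and 8 lower under TMM, but 15 higher and 4 lower under library size. Without replicate number 1, 2 or 3 the higher members numbered 6, 4 and 5 and the lower 5, 5 and 6. Itgam rose from 701, 733 and 739 CPM to 822, 906 and 937 CPM (log2 0.29, adjusted p = 6.32e-04), and Sirpa, the inhibitory receptor for CD47, fell by 0.30 (adjusted p = 5.08e-06). Fcgr1, the high-affinity IgG receptor, fell from 62.4, 62.7 and 60.8 CPM to 25.2, 39.9 and 34.6 CPM (log2 -0.90, adjusted p = 2.53e-04). Dendritic cell and MHC class II genes gave 4 of 28 higher and 4 lower (8 and 2 under library size). H2-Aa and H2-Ab1, class II chains, rose by 0.35 (adjusted p = 4.88e-04) and 0.33 (adjusted p = 3.91e-04). In the same list Batf3 changed by -0.55 (adjusted p = 1.21e-04) and H2-DMb1 by -0.44 (adjusted p = 0.00466), the latter a call lost under library size (adjusted p = 0.0957). Markers of T, NK and B cells (2 of 15 tested higher, 3 lower) and of tumor epithelium, stroma and endothelium (2 of 14 higher, 2 lower) held 0.0309% to 0.0374% and 0.0168% to 0.0201% of gene counts. The conditions overlapped for the first list. For the second the Ctrl IP held 0.0168% to 0.0183% and the IR IP 0.0184% to 0.0201%. These ranges nearly met but did not overlap, and most of the 30 lists showed no overlap. Cdh1 fell by 0.56 and Vwf rose by 0.39 on the log2 scale.

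Inflammatory genes were called in both directions. NF-kB subunits and negative regulators gave 9 of 43 lower and 5 higher under TMM but 1 lower and 14 higher under library size, with medians of -0.042 and 0.16. Without replicate number 2 the counts were 4 lower and 1 higher, and without number 3 they were 5 and 0. Smpdl3b, a lipid-modifying enzyme that restrains Toll-like receptor signaling, fell from 88.1, 101 and 85.1 CPM to 55.1, 49.5 and 49.8 CPM (log2 -0.83, SE 0.10, adjusted p = 1.32e-05), with an Input change of -0.16 that missed the threshold (adjusted p = 0.119). Metrnl, the secreted factor meteorin-like, stood at 217, 226 and 206 CPM in Ctrl and at 197, 196 and 177 CPM in IR. Its change of -0.19 missed the threshold (adjusted p = 0.0621), turned to 0.018 under library size and passed with DESeq2 (-0.18, adjusted p = 0.0425) and with the replicate block.

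Cytokines and their receptors gave 12 of 61 lower and 3 higher (4 and 8 under library size), and 7 and 6 lower without replicate number 1 or 2. Il6ra, the interleukin 6 receptor, changed by -0.44 (adjusted p = 9.62e-06), Il17ra, a receptor chain for interleukin 17, by -0.42 (adjusted p = 3.57e-05), and Csf2rb2, the interleukin 3 receptor chain, by 0.45 (adjusted p = 4.83e-05). Toll-like and cytosolic sensors gave 8 of 40 lower and 2 higher (2 and 4 under library size, and 4 and 2 with any replicate number left out), with Tlr2 at -0.50 (adjusted p = 9.79e-06) and the inflammasome gene Nlrp1b at 0.69 (adjusted p = 3.71e-05).

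Of 31 chemokine and receptor genes tested, 2 fell and 1 rose, both shares below those of all genes, while 1 fell and 6 rose under library size. Interferon-stimulated genes gave 5 of 68 lower (7.35%) and 3 higher (4.41%), near the 9.85% and 6.12% of all genes, and 3 lower and 7 higher under library size, in a list of which 30 of 66 rose in the Input. Mx1, the antiviral GTPase, rose by 0.70 (adjusted p = 3.52e-06) and Gbp7, a guanylate-binding protein, changed by -0.51 (adjusted p = 2.58e-04). Immediate early genes gave 6 of 31 lower and 5 higher (2 and 7 under library size, and 3 and 5 without replicate number 2). Myc fell from 36.5, 34.7 and 38.1 CPM to 17.3, 18.8 and 17 CPM (log2 -1.04, adjusted p = 3.07e-05), and Klf4 changed by -0.62 (adjusted p = 1.30e-05). Nr4a3 and Fosl2 of the same list rose, by 0.54 (adjusted p = 2.83e-05) and 0.52 (adjusted p = 2.26e-04).

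The decay machinery that YTHDF2 works with was itself in the pool. Of 57 genes of mRNA decay and silencing, 11 fell and 8 rose (6 and 17 under library size, and 9 and 5 without replicate number 2 or 3). Upf2, a nonsense-mediated decay factor, fell from 2432, 2558 and 2711 CPM to 1356, 1540 and 1551 CPM (log2 -0.79, SE 0.05, adjusted p = 1.20e-08), and Tnrc6a and Tnrc6c, the GW182 proteins of microRNA silencing, changed by -0.45 (adjusted p = 9.25e-08) and -0.44 (adjusted p = 2.84e-06). Tob1, a recruiter of the Ccr4-Not deadenylase, rose by 0.94 (adjusted p = 0.0015), and Zfp36l1, an AU-rich element binding protein, by 0.50 (adjusted p = 4.74e-04).

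Of 25 writers, erasers and readers of m6A, 4 fell and 1 rose (3 and 4 under library size). Zc3h13, a scaffold of the methyltransferase complex, fell from 971, 983 and 1081 CPM to 515, 510 and 543 CPM (log2 -0.95, SE 0.05, adjusted p = 1.28e-09), while its Input rose by 0.20. Ythdc1, the nuclear reader, changed by -0.57 (adjusted p = 1.94e-06). The Ythdf2 transcript itself stood at 93.2, 94.2 and 92.9 CPM in Ctrl and at 60.1, 86.6 and 68.4 CPM in IR (log2 -0.38, SE 0.11, adjusted p = 0.0275), a call lost under library size (adjusted p = 0.298) and without replicate number 1 or 3 (adjusted p = 0.186 and 0.159). Alkbh5, an m6A demethylase, was called higher at 0.37 (adjusted p = 0.0422), a call lost without replicate number 2 or 3.

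Among 21 tested long noncoding RNAs of the list, 9 fell and 1 rose (6 and 4 under library size). Malat1 (chr19:5795690-5802672, minus strand) took 6.24% of gene counts in the Ctrl IP and 6.1% in the IR IP, so its log2 fold change was -0.24 under TMM (adjusted p = 5.33e-07) and -0.029 under library size (adjusted p = 0.141). Gas5, a host of small nucleolar RNAs whose reads overlap it, fell from 83.6, 76 and 73.9 CPM to 40.2, 47.9 and 44.5 CPM (log2 -0.82, SE 0.10, adjusted p = 2.44e-05), while its Input changed by 0.15.

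The rRNAs of the mitochondrial genome and the replication-dependent histones moved apart from their Inputs. mt-Rnr2, the large mitochondrial rRNA (chrM:1094-2675, plus strand), rose from 225, 246 and 230 CPM to 1248, 1309 and 1302 CPM in the IP (log2 2.46, SE 0.048, adjusted p = 1.82e-14), while in the Input it fell by 1.77 on the log2 scale from a mean of 20553 CPM to one of 6018 CPM. mt-Rnr1, the small rRNA, rose by 1.60 in the IP (adjusted p = 8.29e-11) and fell by 2.17 in the Input. Of the 18 mitochondrial genes tested 4 rose and 3 fell, the latter (mt-Nd1, mt-Nd2 and mt-Nd5) between -0.27 and -0.21 and lost under library size. In the Input 8 of 21 mitochondrial genes rose and 4 fell, with a median of -0.049. The IP change was above the Input change at 4 of 23 mitochondrial genes and below it at 5. Of 55 histone genes tested 1 rose and 1 fell in the IP, a count that was 7 and 0 under library size, 8 and 2 with DESeq2, and 17 and 3 in the fit of all 12 libraries, whereas 57 of 65 fell in the Input with a median of -2.65, and at 43 of the 65 the IP change was above the Input change. Histone mRNAs end in a stem-loop in place of a poly(A) tail, and the part that RNA selection or rRNA removal plays in these opposite changes was not tested.

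The counts of the remaining lists also moved with scaling. Of all genes, 6.12% were higher and 9.85% lower under TMM, and 13.8% and 4.3% under library size. Nuclear oxidative phosphorylation gave 4 of 78 higher (5.13%) and 1 lower (1.28%) under TMM and 17 and 0 under library size, and the proteasome 2 of 47 higher (4.26%) and 8 lower (17%) and then 7 and 5. Glycolysis with the hypoxia response gave 2 of 40 higher and 2 lower under TMM and 14 and 1 under library size, where 13.8% of all genes were higher. Lysosome and v-ATPase genes gave 6 of 67 higher (8.96%) and 5 lower (7.46%) under TMM, 21 and 2 under library size, and 1 and 2 under TMM without replicate number 2. The 340 Zfp-numbered zinc finger genes gave 16 higher (4.71%) and 35 lower (10.3%) under TMM, near the shares of all genes. They gave 36 and 11 under library size, and 10 and 15 under TMM without replicate number 2. Psmd7, a lid subunit of the proteasome whose richest window held 56 purines, fell from 497, 516 and 511 CPM to 304, 330 and 320 CPM (log2 -0.68, SE 0.051, adjusted p = 1.01e-07). Zfp91, a zinc finger ubiquitin ligase, changed by -0.71 (adjusted p = 5.56e-08) and Hk2, hexokinase 2, by -0.50 (adjusted p = 5.52e-06), while Ids, a lysosomal sulfatase, rose by 1.30 (adjusted p = 8.46e-04).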

How the data were processed

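Reads were trimmed by the authors with Trimmomatic 0.39, aligned with HISAT to mm10 and counted on GENCODE genes with HTSeq, per the labels and the study's methods. The deposited files hold raw counts per gene, with no normalization. The strand option of the counting is not given in the sources used here. The labels name isolated mRNA, a stranded total RNA kit and an Abcam antibody, and the methods name an Aviva antibody.

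Rows that name no gene were dropped. Symbols, coordinates and coding windows came from GENCODE M21 (97.8% of identifiers matched with their version, 99.9% in all). The filter kept genes that reached 10 counts in 3 or more libraries, and tests were run in R 4.3.3 with edgeR 4.0.16 (quasi-likelihood, TMM, Benjamini-Hochberg, threshold 0.05). The study's DESeq2 test (version 1.42.0) was an alternative. SE was taken as the size of the log2 fold change over the root of F. Levels are TMM-scaled CPM, with IP and Input libraries scaled separately. The steps were tested on simulated data. Depth sets precision through counting error only, since copies of a molecule cannot be told apart.

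Groups came from titles. Across genes, the deviations of same-numbered IP and Input libraries correlated at most at 0.0145, and those of Ctrl and IR IP libraries of a number at most at 0.0202. By the study's methods the Input is part of the lysate used for the IP. Correlations this weak therefore cannot exclude a shared origin of IP and Input. The main fits did not pair libraries by number, and a replicate block was run as an alternative. Named genes were Mki67, Nop56, Ankrd11, Ythdf2, Metrnl, Smpdl3b, the 3 genes with most counts, the 8 largest changes each way of at least 10 CPM and the 4 of at least 100 counts among protein-coding nuclear genes called under both scalings without overlap of groups, and up to 3 genes each way by p in each of 30 lists. Atrx, Bbc3, Mdm2, Macf1, Flna, Ahnak, the marker genes and the genes whose windows are printed were named outside that rule. The comparison, the lists and the purine feature were chosen with earlier results of these data known. Of the list symbols, 3 had no match. A gene that the rule names is not reported here.

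Alternatives were library size, DESeq2's size factors, DESeq2, other filters, all 12 libraries, a replicate block, thinning, and each replicate or library left out.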

Additional observations from a re-analysis of the deposited data

Results flagged for a closer look

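Reads on no gene, which no comparison of genes uses, made up 51.4% of uniquely aligned reads in the IR IP against 42.3% in the Ctrl IP.

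The IP change differed from the Input change, by the interaction test of edgeR over all 12 libraries under TMM, at 1301 genes in the upward and 2881 genes in the downward direction. Genes named only through the lists, for their counts or outside the naming rule are left out here, in both directions. Among the genes given by name or for the size of their change, the difference (IP change minus Input change, log2) was positive at Zfp365 (1.16), Zmat3 (0.63), Cep170b (0.41) and Trp53inp1 (0.32). It was negative at Ankrd11 (-1.40), Cyp11a1 (-1.29), Matn1 (-1.26), Siglech (-1.07), Nop56 (-0.87), Nop58 (-0.83), Smpdl3b (-0.76), Nolc1 (-0.67), Mki67 (-0.56), Metrnl (-0.55), Dkc1 (-0.48) and Mpo (-0.25). Ankrd11, Metrnl and Matn1 rose in the Input, and the other negative genes but Smpdl3b, whose Input change missed the threshold, fell in both fractions and further in the IP. With 3 libraries a group, no check for a single far library was made.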

How the results depend on the processing

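Library-size scaling gave 2665 higher and 828 lower genes in the IP, and the IP change was above the Input change at 2862 genes and below it at 877. A fit of all 12 libraries gave 2125 higher and 2952 lower, and a 2-fold minimum 571 and 135. Leaving out libraries gave 564 to 1056 higher and 1097 to 1850 lower genes in the IP, 838 to 1012 and 1786 to 2046 for the interaction, and 2658 to 3132 and 3137 to 3588 in the Input. DESeq2 gave 1761 higher and 2046 lower genes, no filter 1242 and 2328, and 10 counts in all 6 libraries 1425 and 1732. Restricting the test to genes of at least 1 CPM in the Inputs, chosen after seeing the data, gave 1267 and 1595. With the replicate block 1119 genes were higher and 2034 lower in the IP, 1134 and 2766 in the interaction and 3753 and 4177 in the Input.

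Of 159 named genes, 116 kept direction and side of the threshold under all alternatives run on them, and 22 did not under library size only, where Metrnl turned to 0.018 and Rpl12 to 0.015. Without replicate number 1, 2 or 3 the named genes that did not numbered 20, 30 and 21. Causes were not tested. A change shared by most genes cannot be seen under TMM.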

Other observations

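GGACT, letters of the m6A consensus, searched on the transcript strand of the longest coding transcript, is present in 91.4% of the 11491 transcripts. By sites per kilobase, the class with fewest (under 0.633) had 427 of 2872 genes lower and 167 higher, and that with most (over 1.55) 462 of 2873 lower and 143 higher, with median log2 fold changes of -0.049 and -0.088 under TMM. Under library size the balance turned, to 191 lower and 481 higher and to 174 lower and 403 higher. A letter match is not a methylated site, and methylation was not measured in these libraries.

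By annotated type, 1756 of 14009 protein-coding genes (12.5%) fell and 973 (6.95%) rose in the IR IP under TMM, while under library size 758 fell and 2303 rose. Among 854 lincRNAs 35 rose and 25 fell, among 732 antisense genes 27 rose and 14 fell, and among 1504 processed pseudogenes, whose reads can come from their parent genes, 59 rose and 23 fell under TMM. These 3 types had median IP levels of 0.915, 0.879 and 0.913 CPM, and the counting option for strand is not given in the sources used here, so reads of antisense genes and of their partners may not be told apart. The 100 genes with most counts took 27.6% to 28.5% of gene counts in the Ctrl IP and 24.9% to 25.4% in the IR IP.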
